A study of Homo sapiens with 66 samples.

Results

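HMOX1, NQO1, GCLM, GCLC, SRXN1, TXNRD1, OSGIN1, ME1 and NFE2L2 are 9 genes of the oxidative stress response, out of 20167 genes in the count table. They were chosen because HMOX1 changed with NCP26 between 6 h and 24 h, and the other members are known genes of the same pathway. The set was thus chosen by the HMOX1 values with NCP26, and these are described without a test in both cell lines. Transcript levels were measured by RNAseq in 66 libraries with 3 replicates per group, 12 groups (36 libraries) being AMO1 and 10 (30 libraries) L363-CFZr cells. AMO1 is an established human multiple myeloma line, and L363-CFZr is a subline of the myeloma line L363 that is resistant to carfilzomib (CFZ), an inhibitor of the proteasome. Cells were exposed for 6 h or 24 h to DMSO, the solvent control, or to NCP26, NCP22, halofuginone (HFG) or halofuginol at 1 µM, and AMO1 cells also to CFZ. The study gives a lower dose for CFZ than for the other compounds, so values with CFZ are not set beside them at a matched dose. NCP26, NCP22, HFG and halofuginol are inhibitors of prolyl-tRNA synthetase (ProRS), the enzyme that loads proline onto its tRNA. HFG and halofuginol compete with proline, and NCP26 was developed from NCP22 and occupies the ATP site. The study describes the potencies of halofuginol and NCP22 as lower or absent. The study's methods, written for AMO1 cells, had samples frozen overnight after 6 h and held on ice after 24 h. Time and storage thus cannot be told apart in AMO1 cells. How L363-CFZr samples were held is not stated. Each line is 1 model, the study's methods describe its replicates as biological, and p-values here measure the spread between the 3 libraries of a group.

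Total counts ran from 1666325 to 5761682 in AMO1 libraries and from 2487872 to 6596543 in L363-CFZr libraries. All 8 plasma cell markers examined, SDC1 and TNFRSF17 among them, had counts in all 66 libraries. Of the markers of other cells, CD3E of T cells had a median of 1.58 CPM, counts scaled to a common library size, and at most 4.01 CPM in AMO1 cells, with a median of 0 in L363-CFZr cells, EPCAM a median of 0 in AMO1 and 0.314 CPM in L363-CFZr cells, and ALB a median of 0 in both lines. COL1A1 reached at most 9.65 CPM. Sample numbers in the table ran from 1 to 22 in each of 3 sets, whose meaning is not stated. The treated AMO1 groups at 24 h were numbered in a different set from DMSO at 24 h, apart from replicate 1 of CFZ, and so were HFG and halofuginol in L363-CFZr cells at 6 h. Some libraries stood apart from the other replicates of their group. Without replicate 2 of CFZ at 24 h in AMO1 cells, the genes that passed the test against DMSO went from 2886 to 5220, and without replicate 2 of DMSO at 24 h in L363-CFZr cells they went from 757 to 3123 for NCP26 and from 122 to 2062 for HFG. Without replicate 2 of NCP26 at 6 h in L363-CFZr cells, the genes called from the pathway lists described below went from 18 to 34. All treatments of a line and time were compared with the same 3 DMSO libraries.

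NRF2, the product of NFE2L2, is a transcription factor that is held at a low level by KEAP1, which passes it to a ubiquitin ligase and the proteasome. When oxidants or electrophiles modify KEAP1, or when the proteasome is blocked, NRF2 accumulates, pairs with small MAF proteins and binds antioxidant response elements. Its targets make glutathione, keep thioredoxin and peroxiredoxins reduced, detoxify quinones, break down haem and supply NADPH. HMOX1 is set apart by its strong repression through BACH1, a factor that competes for the same elements and is released when it binds haem, and it also answers to heat shock and amino acid stress. Myeloma cells secrete large amounts of protein and carry a high load of oxidative folding.

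On GRCh38 (GENCODE v44), HMOX1 (ENSG00000100292) lies at chr22:35380361-35394214, NQO1 (ENSG00000181019) at chr16:69706996-69726668, GCLM (ENSG00000023909) at chr1:93885199-93909456 and GCLC (ENSG00000001084) at chr6:53497341-53616970. SRXN1 (ENSG00000271303) lies at chr20:646615-653200, TXNRD1 (ENSG00000198431) at chr12:104215779-104350307 and OSGIN1 (ENSG00000140961) at chr16:83931311-83966332. ME1 (ENSG00000065833) lies at chr6:83210402-83431051 and NFE2L2 (ENSG00000116044) at chr2:177218667-177392756. Of the 31-base words in SRXN1 transcripts, 90.6% also occur in a read-through gene that was listed at 0 counts in all 66 libraries. For NFE2L2 the share of words found in other genes was 39.5%, with most in HNRNPA3, and for NQO1 it was 20.4%. The gene whose exons overlap NQO1 lies on the opposite strand, and of those that overlap NFE2L2, AGPS, HNRNPA3 and ENSG00000222043 lie on the opposite strand and ENSG00000213963 on the same. The use of strand in counting is not stated, so that reads of these genes may be shared.

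The letters of the element that NRF2 binds are shown where they occur near a start site, since the member genes were compared for how far they moved together. The core TGACNNNGC was searched on both strands in promoter windows of 250 bases before to 50 bases after each start (RefSeq, GRCh38.p14), which were held for 8 members in 10 windows. It occurred in 4 windows of GCLM, TXNRD1 and ME1, and in 13.3% of all 35116 promoter windows. The windows are GCLM at chr1:93909381-93909680 on the minus strand, TXNRD1 at chr12:104215529-104215828 and, for a further start, chr12:104286782-104287081 on the plus strand, and ME1 at chr6:83431002-83431301 on the minus strand. They are printed from 5′ to 3′ along the gene, with the matches in capitals.
GCLM: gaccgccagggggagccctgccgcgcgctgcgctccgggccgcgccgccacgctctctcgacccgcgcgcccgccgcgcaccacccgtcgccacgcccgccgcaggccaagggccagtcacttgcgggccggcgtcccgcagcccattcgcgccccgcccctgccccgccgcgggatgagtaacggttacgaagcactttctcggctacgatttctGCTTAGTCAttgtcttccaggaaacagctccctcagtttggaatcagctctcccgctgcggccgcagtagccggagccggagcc
TXNRD1, first start: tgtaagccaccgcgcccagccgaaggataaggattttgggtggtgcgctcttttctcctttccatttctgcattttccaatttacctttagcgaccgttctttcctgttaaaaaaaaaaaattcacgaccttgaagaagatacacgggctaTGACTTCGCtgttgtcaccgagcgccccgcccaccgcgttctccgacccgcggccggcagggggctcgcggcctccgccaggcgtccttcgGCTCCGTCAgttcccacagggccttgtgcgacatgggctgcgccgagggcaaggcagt
TXNRD1, further start: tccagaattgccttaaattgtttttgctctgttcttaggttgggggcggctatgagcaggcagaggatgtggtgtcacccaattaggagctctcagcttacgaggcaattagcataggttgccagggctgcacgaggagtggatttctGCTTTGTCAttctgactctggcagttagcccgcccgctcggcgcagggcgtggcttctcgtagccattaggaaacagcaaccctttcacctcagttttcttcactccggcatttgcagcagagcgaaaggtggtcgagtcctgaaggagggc
ME1: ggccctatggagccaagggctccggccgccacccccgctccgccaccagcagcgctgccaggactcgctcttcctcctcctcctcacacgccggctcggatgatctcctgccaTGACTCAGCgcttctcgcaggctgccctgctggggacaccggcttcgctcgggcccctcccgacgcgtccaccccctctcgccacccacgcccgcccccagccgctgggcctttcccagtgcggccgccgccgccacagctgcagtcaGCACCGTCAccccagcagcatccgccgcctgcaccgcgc
The match in GCLM began at position -34 from the start, those in TXNRD1 at -99, -8 and, for the further start, -102, and those in ME1 at -137 and 11. The C/EBP-ATF composite TGATGNAAN, the element through which amino acid shortage acts on many genes, had no match in these 10 windows and one in 3.61% of all windows. The windows of NQO1, GCLC, SRXN1, OSGIN1 and NFE2L2 held neither set of letters. A match is a description of the letters, and elements further from a start were not searched. The promoter of HMOX1 is not printed.

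HMOX1 encodes haem oxygenase 1, which opens haem to biliverdin, iron and carbon monoxide. Levels are given as CPM scaled by the trimmed mean of M values (TMM), as mean ± SD of 3 libraries. At 6 h in AMO1 cells, the DMSO libraries had 27.8, 40.2 and 34 CPM and the NCP26 libraries 8.23, 12 and 10.4 CPM. At 24 h the DMSO libraries had 22, 22.9 and 22.9 CPM and the NCP26 libraries 116, 120.0 and 105 CPM. The groups did not overlap at either time, NCP26 standing below DMSO at 6 h and above it at 24 h. In bulk RNA, fewer cells that express a gene and less RNA per cell cannot be told apart. The log2 fold change against DMSO was -1.70 at 6 h and 2.32 at 24 h, and the values that chose the genes run in opposite directions at these times. When these 3 sets entered the fit as a factor, referred to as the set term, the value at 24 h was 2.47. In AMO1 cells at 24 h this term rests on a single CFZ library that links the sets, and in L363-CFZr cells at 6 h on NCP22 replicate 3.

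The same gene could be tested with HFG and CFZ, whose libraries the choice of genes did not use. The DMSO libraries are those that NCP26 was compared with, so these tests are not fully independent of the choice. With HFG in AMO1 cells HMOX1 stood at 11.5, 10.7 and 10.3 CPM at 6 h, all below DMSO, and the log2 fold change was -1.62 ± 0.17 (SE, adjusted p = 8.93e-07, edgeR). At 24 h it stood at 49.6, 34.4 and 40.8 CPM, all above DMSO, with a log2 fold change of 0.85 ± 0.14 (adjusted p = 3.07e-05). HMOX1 thus fell at 6 h and rose at 24 h with HFG, and the difference of the effects between the times was 2.51 ± 0.22 (adjusted p = 4.24e-08). CFZ gave 345, 366 and 391.8 CPM at 6 h and 116, 94.5 and 117 CPM at 24 h, above every DMSO library at both times. The log2 fold change with CFZ was 3.43 ± 0.10 (adjusted p = 4.48e-17) at 6 h and 2.29 ± 0.12 (adjusted p = 3.94e-05) at 24 h. The rise with CFZ was smaller at 24 h, with a difference of -1.16 ± 0.18 on the log2 scale (adjusted p = 0.000686), opposite in sign to the difference with HFG. At 24 h the NCP26 and CFZ libraries overlapped in HMOX1, at means of 114 ± 7.72 and 109 ± 12.8 CPM.

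In L363-CFZr cells HMOX1 was at a higher level with DMSO than in AMO1 cells, a difference between lines that was not tested, and it lay below DMSO at both times with NCP26 and HFG. The DMSO libraries had 223, 226 and 290.2 CPM at 6 h and 93.9, 55.3 and 97.9 CPM at 24 h, replicate 2 at 24 h being the low one. With NCP26 the values were 73.8, 117 and 90.5 CPM at 6 h and 36.1, 35 and 35.5 CPM at 24 h, a log2 fold change of -1.37 and -1.21. These NCP26 libraries lay below every DMSO library at each time. HFG gave 105, 103 and 108 CPM at 6 h, with a log2 fold change of -1.20 ± 0.084 (adjusted p = 3.77e-11), and -1.41 with the set term, still called. At 24 h HFG gave 32.1, 29.6 and 28 CPM and a log2 fold change of -1.47 ± 0.22 (adjusted p = 0.0323). That call was lost when any 1 library other than DMSO replicate 2 was left out, at log2 fold changes of -1.52 to -1.32. The HFG effect at 24 h was lower in L363-CFZr than in AMO1 cells, with a difference of -2.34 ± 0.28 on the log2 scale (adjusted p = 0.000172), HMOX1 having risen in AMO1 and fallen in L363-CFZr cells.

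With NCP22 and halofuginol no change of HMOX1 passed the test. NCP22 gave 31 ± 3.85 CPM at 6 h and 30.2 ± 6.05 CPM at 24 h in AMO1 cells, and 257 ± 30.4 and 100.2 ± 9.15 CPM in L363-CFZr cells. Halofuginol gave 24.7 ± 1.71 and 26.8 ± 0.705 CPM in AMO1 cells, and 264 ± 6.40 and 103 ± 3.09 CPM in L363-CFZr cells. HMOX1 was not called in these 8 comparisons with DMSO, although the 3 treated and 3 DMSO libraries did not overlap in 4 of them, in which 0% to 3.62% of all genes were called. Leaving out 1 library brought a call in 3 of the 8 comparisons. In AMO1 cells these were halofuginol at 6 h without DMSO replicate 1 (-0.59 on the log2 scale, from -0.45) and NCP22 at 24 h without its replicate 1 (0.58, from 0.44). In L363-CFZr cells it was halofuginol at 6 h without DMSO replicate 3 (0.22, from 0.092). Halofuginol at 6 h was also called in AMO1 cells with no filter on low counts (-0.45) and in L363-CFZr cells with an offset for GC content (0.28).

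Ordered by level, the 22 groups ran from 367 ± 23.6 CPM with CFZ at 6 h in AMO1 cells to 10.2 ± 1.91 CPM with NCP26 at 6 h in AMO1 cells. The next groups below CFZ were the L363-CFZr groups at 6 h with halofuginol, NCP22 and DMSO, which overlapped one another. A middle run held AMO1 NCP26 and CFZ at 24 h together with L363-CFZr HFG and NCP26 at 6 h and halofuginol, NCP22 and DMSO at 24 h, where each neighbour overlapped the next. The remaining AMO1 groups and L363-CFZr NCP26 and HFG at 24 h lay below, and AMO1 HFG and NCP26 at 6 h came last and overlapped. Of the 21 pairs of neighbours, 15 overlapped in their ranges.

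**Figure D1:**
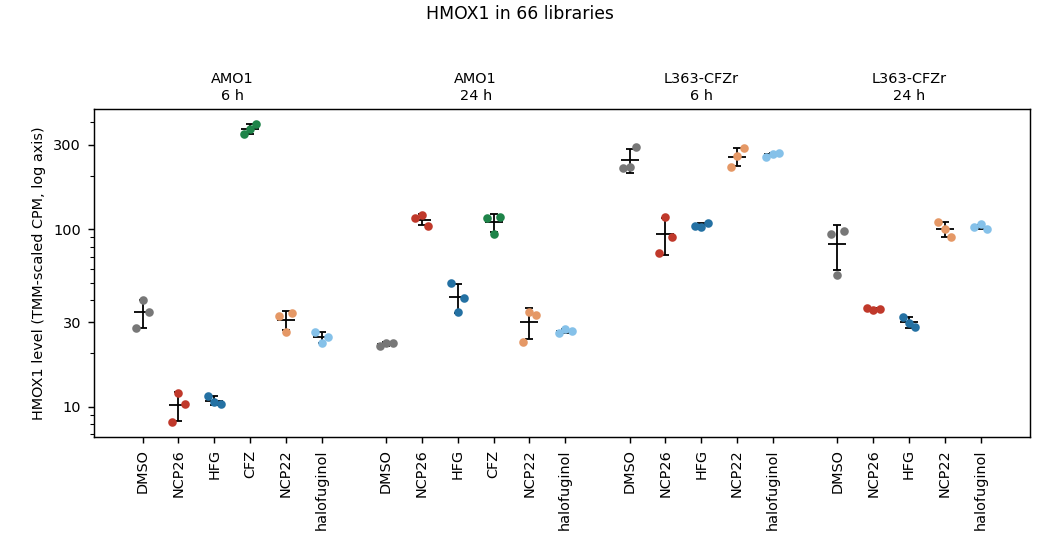
HMOX1 level in each of the 66 libraries (TMM-scaled CPM, log axis) by line, time and treatment. Points are libraries, long bars the mean and short bars the SD. NCP26 and HFG libraries of AMO1 cells lie below DMSO at 6 h and above it at 24 h, and those of L363-CFZr cells lie below DMSO at both times.

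Members called in each comparison are counted beside the share of all tested genes that passed the same test (edgeR, adjusted p under 0.05). That share, also named the background, counts genes called in either direction and was large in many comparisons. A count of members in 1 direction is thus set beside a share for both. Shares by direction for NCP26, HFG and CFZ against DMSO stand with the pathway lists below. HMOX1 is left out of the counts with NCP26. In AMO1 cells at 6 h, CFZ raised 6 of 7 members and lowered none of them, against 26.9% of all genes called. OSGIN1 is not counted there, since it passed the filter on low counts through the CFZ libraries alone. NCP26 lowered 3 of 6 members, against 37.3% of genes, and HFG raised 2 and lowered 4 of 7, against 54.3%. At 24 h CFZ raised 3 and lowered 1 of 7 (background 27%), NCP26 raised 1 of 6 (background 60.7%) and HFG raised 3 of 7 (background 59%). The shares with NCP26 and HFG at 24 h were thus below the share of all genes, while CFZ at 6 h was above it. NCP22 and halofuginol at 6 h each raised 1 of 7, against 13.5% and 3.62% of genes. At 24 h edgeR and DESeq2 called 0 of 7 members with either compound, with 1 at an unadjusted p under 0.05 in each, and edgeR called 0% of all genes with NCP22 and 0.183% with halofuginol.

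In L363-CFZr cells NCP26 raised 3 of 7 members at 6 h (background 18.8%) and 3 of 7 at 24 h (background 7.09%). HFG raised 3 and lowered 1 of 8 at 6 h (background 54.5%) and lowered 1 of 8 at 24 h (background 1.17%). Halofuginol raised 2 of 8 at 6 h (background 25.8%). By edgeR and by DESeq2 0 of 8 were called with halofuginol at 24 h or with NCP22 at either time, with 0 at an unadjusted p under 0.05, and edgeR called 0% of all genes in each of these 3 comparisons. The count with NCP26 at 24 h was 0 to 4 when 1 library was left out, and that with HFG at 24 h was 5 when DMSO replicate 2 was dropped and 0 when any other library was. The counts with NCP26 and with halofuginol at 6 h were 1 to 4 and 1 to 4 in the same way. At 24 h in AMO1 cells the count with CFZ was 8 without CFZ replicate 2, OSGIN1 among them, which then passed the filter through the CFZ libraries.

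**Figure D2:**
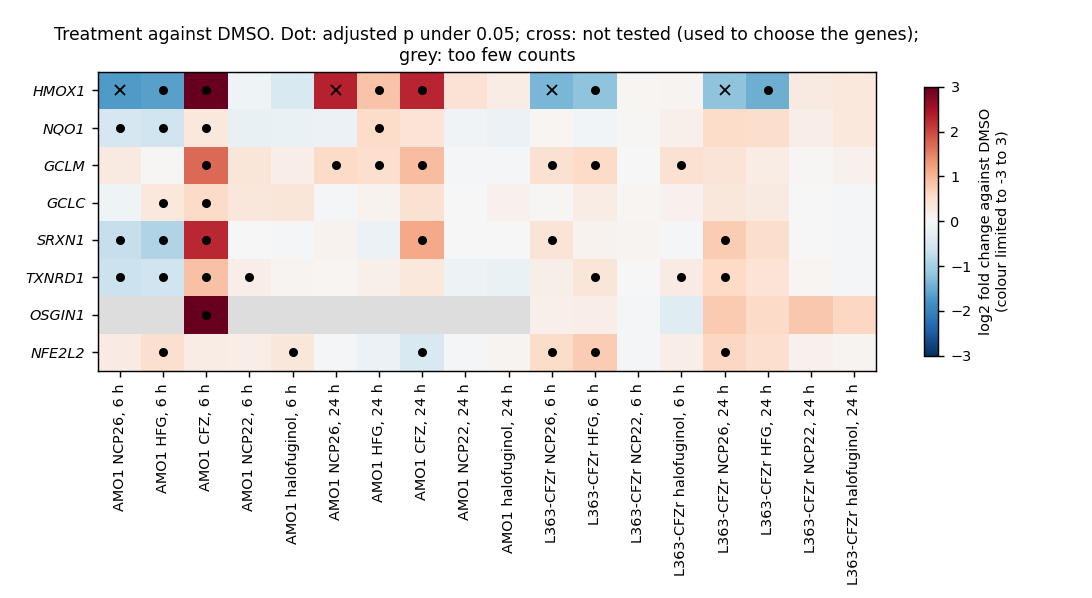
Log2 fold change against DMSO (colour, limited to -3 to 3) of 8 members in 18 comparisons, with dots at an adjusted p under 0.05. Crosses mark HMOX1 values that chose the genes, and grey cells had too few counts. The cells with a dot in the AMO1 CFZ column at 6 h are red, with HMOX1 at 3.43 and SRXN1 at 2.26. The dot of OSGIN1 in that column is not read as a test, since the gene passed the filter through the CFZ libraries alone.

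GCLM and GCLC encode the modifier and catalytic subunits of glutamate-cysteine ligase, which makes the first bond of glutathione. GCLM rose with CFZ in AMO1 cells, from 17.9, 17.8 and 21.3 CPM in DMSO to 57.7, 65.7 and 62.2 CPM at 6 h, a log2 fold change of 1.70 ± 0.13 (adjusted p = 1.35e-09). At 24 h the DMSO libraries had 16.1, 19.6 and 13.8 CPM and the CFZ libraries 29.1, 32.2 and 31.1 CPM, a log2 fold change of 0.92 ± 0.17 (adjusted p = 0.00528). The CFZ libraries lay above every DMSO library at both times. NCP26 gave 21.3, 30.003 and 22.8 CPM at 24 h, all above DMSO, and GCLM was the member called there, at 0.58 ± 0.16 (adjusted p = 0.00291). HFG gave 27.6, 21.1 and 22.9 CPM and 0.51 ± 0.17 (adjusted p = 0.0151), a call lost without DMSO replicate 3 (0.37). With the set term GCLM was 0.47 with NCP26 and 0.40 with HFG at 24 h and was not called with either, while the CFZ value of 0.84 was. At 6 h GCLM was not called with NCP26 (0.27 ± 0.16) or HFG (0.033 ± 0.18).

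In L363-CFZr cells at 6 h GCLM was 27.6, 23.5 and 25.8 CPM with DMSO, 31.8, 34.3 and 37.3 CPM with NCP26 and 42.9, 30.7 and 36.8 CPM with HFG, with no overlap between either compound and DMSO. It rose by 0.45 ± 0.13 with NCP26 (adjusted p = 0.0370), 0.57 ± 0.13 with HFG (adjusted p = 0.000645) and 0.47 ± 0.11 with halofuginol (adjusted p = 0.00593) on the log2 scale. The NCP26 call was lost without any 1 library other than NCP26 replicate 2 (0.38 to 0.50), and all 3 calls were lost with an offset for GC content. The halofuginol call was also lost with the set term (0.57). At 24 h GCLM was not called with any compound in this line, the values running from 0.026 with NCP22 to 0.38 with NCP26. With CFZ at 6 h in AMO1 cells GCLC went from 27.4, 24.1 and 25.9 CPM to 38.7, 41.4 and 35.8 CPM, 0.57 ± 0.13 (adjusted p = 0.00251). With HFG at 6 h it was called at 0.32 ± 0.12 (adjusted p = 0.0380), a call lost without any 1 of the 6 libraries (0.27 to 0.36) and in DESeq2, and GCLC was called in no other comparison with DMSO. Leaving out 1 library brought a GCLC call with CFZ at 24 h in AMO1 cells, without CFZ replicate 2 (0.48), and with HFG at 6 h in L363-CFZr cells, without DMSO replicate 1 (0.35).

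TXNRD1 encodes thioredoxin reductase 1, which returns electrons from NADPH to thioredoxin, and SRXN1 encodes sulfiredoxin, which repairs over-oxidised peroxiredoxins. At 6 h in AMO1 cells SRXN1 had 59.5, 57.7 and 62.4 CPM with DMSO, 34.9, 36.7 and 39 CPM with NCP26, 29.2, 36.3 and 28.3 CPM with HFG and 288, 279 and 294 CPM with CFZ. The NCP26 and HFG libraries lay below every DMSO library and the CFZ libraries above. The log2 fold changes were -0.69 ± 0.11 with NCP26 (adjusted p = 0.000542), -0.91 ± 0.12 with HFG (adjusted p = 8.67e-06) and 2.26 ± 0.078 with CFZ (adjusted p = 9.74e-16). TXNRD1 moved the same way, with 210.3, 208 and 222 CPM in DMSO, 116, 145 and 145 CPM with NCP26, 142, 132 and 138 CPM with HFG and 389, 400.2 and 399 CPM with CFZ. It fell by 0.65 ± 0.11 with NCP26 (adjusted p = 0.000644) and by 0.60 ± 0.074 with HFG (adjusted p = 6.46e-06) on the log2 scale, and rose by 0.89 ± 0.065 with CFZ (adjusted p = 8.38e-10). No library of these compounds overlapped DMSO in either gene, and no call was lost when a library was left out. With NCP22 at 6 h TXNRD1 was called at 0.20 ± 0.068 (adjusted p = 0.0484), which was lost without any 1 library other than DMSO replicate 3 (0.18 to 0.22).

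At 24 h in AMO1 cells SRXN1 had 37.1, 35.9 and 35.9 CPM with DMSO, 38.5, 37.5 and 40.7 CPM with NCP26 and 29.3, 33.1 and 33.5 CPM with HFG. It was not called with NCP26 (0.10 ± 0.10) or HFG (-0.17 ± 0.11), and neither was TXNRD1 (0.059 ± 0.068 and 0.15 ± 0.073). Without DMSO replicate 3 TXNRD1 was called with HFG, at 0.22. SRXN1 remained higher with CFZ, at 79.9, 64.3 and 93 CPM and 1.14 ± 0.14 (adjusted p = 0.00095). TXNRD1 with CFZ was 0.32 ± 0.11 and not called, but was called without CFZ replicate 2 (0.36) and with the set term (0.36). In L363-CFZr cells neither gene fell. SRXN1 rose with NCP26 at 6 h, from 45.1, 44.7 and 52.4 CPM to 57.2, 69.7 and 57.8 CPM (0.39 ± 0.12, adjusted p = 0.0492), a call lost without any 1 library other than NCP26 replicate 2 (0.35 to 0.47). At 24 h it went from 30.4, 23.9 and 31.3 CPM to 48.8, 50.4 and 45.3 CPM (0.76 ± 0.15, adjusted p = 0.0259).

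TXNRD1 rose in L363-CFZr cells with HFG at 6 h, from 217, 208 and 191 CPM in DMSO to 276, 245 and 253 CPM, all above DMSO (0.37 ± 0.068, adjusted p = 6.88e-05). With halofuginol at 6 h it was 0.24 ± 0.062 (adjusted p = 0.00865), a call lost without halofuginol replicate 2 (0.20) and with the set term (0.34). With NCP26 TXNRD1 was 0.17 ± 0.11 at 6 h, not called, although it was without NCP26 replicate 2 (0.25). At 24 h it went from 129.7, 120.0 and 151 CPM to 194, 205 and 201 CPM with NCP26 (0.59 ± 0.13, adjusted p = 0.0399). The calls of SRXN1 and TXNRD1 with NCP26 at 24 h were lost when any 1 library other than DMSO replicate 2 was left out, at 0.73 to 0.83 and 0.57 to 0.69. HFG at 24 h gave 0.52 ± 0.15 for SRXN1 and 0.41 ± 0.13 for TXNRD1, neither called, and without DMSO replicate 2 both were, at 0.42 and 0.35.

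NQO1 encodes NAD(P)H quinone dehydrogenase 1, which reduces quinones with electrons from NADH or NADPH. In AMO1 cells at 6 h NQO1 had 81.7, 67.5 and 73.7 CPM with DMSO, 62.7, 46 and 48.5 CPM with NCP26 and 47.2, 51.8 and 45.6 CPM with HFG. It fell by 0.50 ± 0.13 with NCP26 (adjusted p = 0.0105) and by 0.59 ± 0.10 with HFG (adjusted p = 0.000133) on the log2 scale, both groups lying below every DMSO library. The NCP26 call was lost without DMSO replicate 1 (-0.43). CFZ gave 91.3, 96.9 and 90.9 CPM and 0.32 ± 0.091 (adjusted p = 0.0125), a call lost without DMSO replicate 2 (0.25), without CFZ replicate 2 (0.29) and in DESeq2. At 24 h NQO1 had 49.2, 50.1 and 48.1 CPM with DMSO and 78.8, 73.7 and 66 CPM with HFG, and rose by 0.55 ± 0.094 (adjusted p = 5.71e-05). With NCP26 at 24 h it had 45.4, 41.1 and 43.7 CPM and was not called (-0.18 ± 0.095). CFZ libraries spread widely, at 74.6, 45.4 and 72.4 CPM, and the value of 0.40 ± 0.18 was not called, but was without CFZ replicate 2 (0.59). In L363-CFZr cells NQO1 was called in none of the 8 comparisons with DMSO, with values from -0.085 with HFG at 6 h to 0.55 with NCP26 at 24 h. Without the low DMSO replicate 2, at 65.8 CPM, NQO1 was called at 24 h with NCP26 (0.38) and HFG (0.36), and it was called with halofuginol at 6 h without DMSO replicate 3 (0.26).

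OSGIN1, a gene named for its induction by oxidative stress and for growth inhibition, and ME1, which encodes the cytosolic malic enzyme that makes NADPH, were scarce. OSGIN1 had 761 counts over all libraries and was tested in 21 of the 38 comparisons. OSGIN1 in AMO1 cells at 6 h had 2, 1 and 2 counts with DMSO, or 0.661, 0.350 and 0.709 CPM, and 26, 28 and 27 with CFZ, or 10.3, 10.2 and 8.79 CPM. The counts with CFZ lay above every DMSO count, and no test is given because the gene entered the fit through the CFZ libraries alone. With CFZ at 24 h it had 16, 6 and 15 counts and with NCP26 at 24 h 14, 11 and 9, against 3, 6 and 3 with DMSO, and both stayed under the filter on low counts. In L363-CFZr cells DMSO gave 3.95, 3.41 and 6.66 CPM at 6 h, and OSGIN1 was called in none of the 8 comparisons. ME1 had 3 counts in 3 libraries and was never tested. NFE2L2 transcripts tell of the gene's expression, while NRF2 is known to be governed mainly through its protein. NFE2L2 in AMO1 cells at 6 h had 129, 141 and 148 CPM with DMSO and 196, 179 and 194 CPM with HFG, and rose by 0.48 ± 0.081 (adjusted p = 0.000125). It was not called with NCP26 (0.25 ± 0.10) or CFZ (0.21 ± 0.080), the latter being called without DMSO replicate 3 (0.26) or CFZ replicate 2 (0.26). Halofuginol gave 0.33 ± 0.075 (adjusted p = 0.0166), lost without DMSO replicate 1 or 2 or halofuginol replicate 1 or 3 (0.27 to 0.34). NCP22 gave 0.20 ± 0.079, called only without DMSO replicate 3 (0.25).

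At 24 h in AMO1 cells NFE2L2 had 135, 137 and 127 CPM with DMSO and 96.3, 80.8 and 112 CPM with CFZ, the lowest being CFZ replicate 2. Its log2 fold change was -0.45 ± 0.13 (adjusted p = 0.0315), a call lost without any 1 DMSO library or CFZ replicate 1 (-0.48 to -0.43). NCP26 (-0.058 ± 0.064) and HFG (-0.19 ± 0.083) were not called, although HFG was without its replicate 1 (-0.26). HFG was also called with no filter on low counts (-0.22), the replicate block (-0.19) and the GC offset (-0.28), and NCP26 with the GC offset (-0.16). In L363-CFZr cells NFE2L2 rose with both compounds at 6 h. DMSO gave 58.9, 56.9 and 59.9 CPM, NCP26 85, 88.2 and 81.3 CPM and HFG 95.5, 93.7 and 101 CPM, with no overlap with DMSO. The log2 fold changes were 0.55 ± 0.10 (adjusted p = 0.00435) and 0.76 ± 0.082 (adjusted p = 5.73e-08), and 1.08 for HFG with the set term. At 24 h DMSO gave 51.1, 47.1 and 57.3 CPM, NCP26 75.1, 82.1 and 80.2 CPM and HFG 75.1, 69.6 and 75.5 CPM. Both compounds lay above DMSO, and NCP26 was called at 0.62 ± 0.13 (adjusted p = 0.0316), which was lost without any 1 library other than DMSO replicate 2 (0.60 to 0.69). HFG at 0.50 ± 0.12 was not called, but was without DMSO replicate 2 (0.44).

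**Figure D3:**
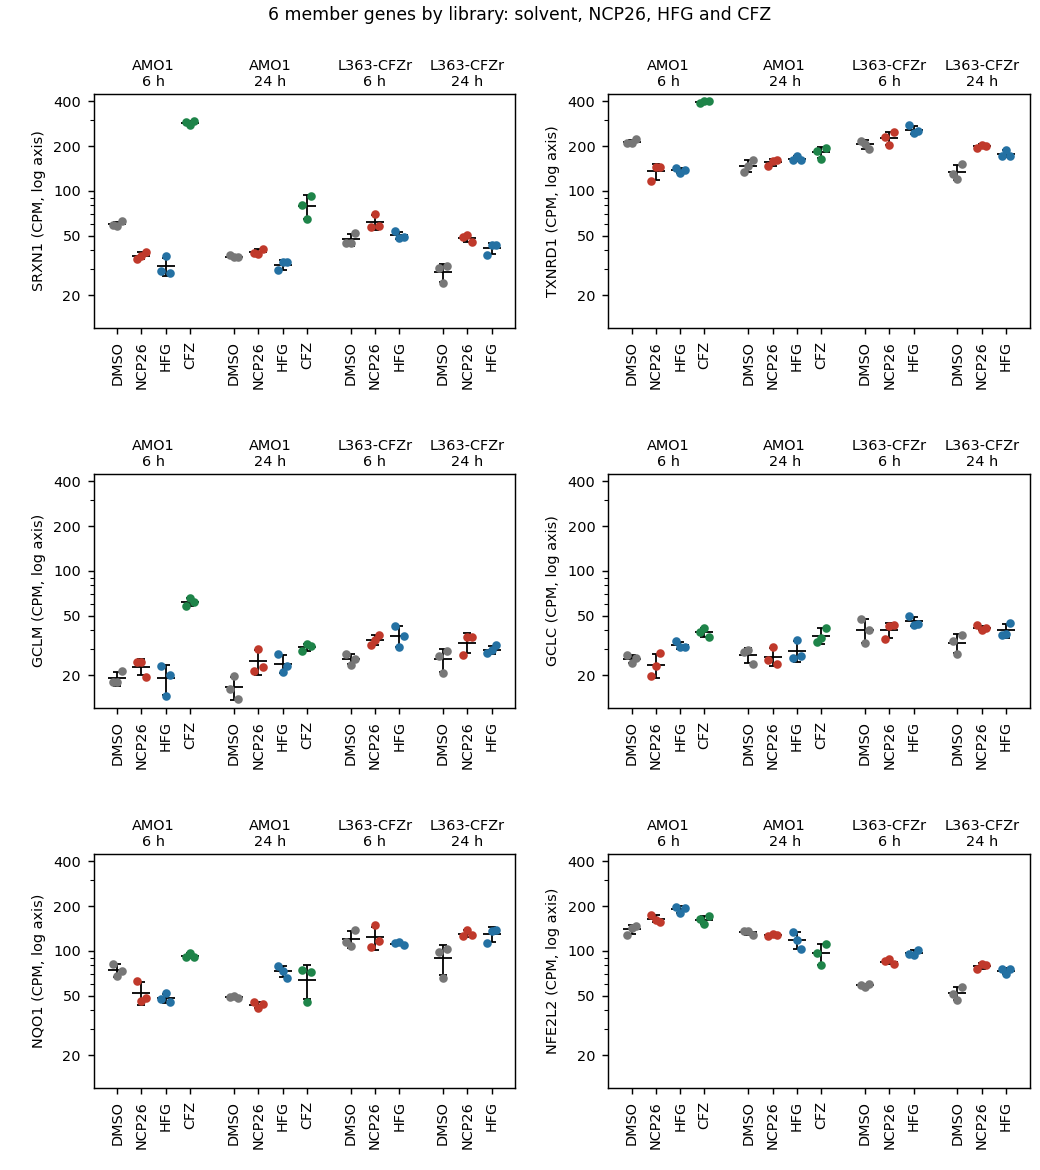
Levels of SRXN1, TXNRD1, GCLM, GCLC, NQO1 and NFE2L2 in each library (TMM-scaled CPM, log axis) with DMSO, NCP26, HFG and, in AMO1 cells, CFZ. Points are libraries, bars the mean and SD. SRXN1 and TXNRD1 lie below DMSO with NCP26 and HFG at 6 h in AMO1 cells. Among the AMO1 groups shown at 6 h, CFZ lies highest for GCLM, GCLC, SRXN1, TXNRD1 and NQO1.

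Ordered by mean level over the 22 groups, GCLM ran from 61.9 CPM with AMO1 CFZ 6 h to 16 CPM with AMO1 halofuginol 24 h, SRXN1 from 287 CPM with AMO1 CFZ 6 h to 28.1 CPM with L363-CFZr halofuginol 24 h and TXNRD1 from 396 CPM with AMO1 CFZ 6 h to 129.6 CPM with AMO1 halofuginol 24 h, so that AMO1 cells with CFZ at 6 h stood highest in each, as they did for HMOX1 and OSGIN1. NQO1 ran from 135 CPM with L363-CFZr halofuginol 6 h to 43.4 CPM with AMO1 NCP26 24 h, and GCLC from 45.8 CPM with L363-CFZr HFG 6 h to 23.5 CPM with AMO1 NCP26 6 h. NFE2L2 ran from 189.6 CPM with AMO1 HFG 6 h to 51.8 CPM with L363-CFZr DMSO 24 h. Neighbouring groups in these orders overlapped in 21 of 21 cases for NQO1 and GCLC, 20 for GCLM and SRXN1, 19 for TXNRD1 and OSGIN1 and 18 for NFE2L2, so that few steps between neighbours exceeded the spread of the libraries.

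Related compounds were compared at the same dose and time in 11 pairs, each with p-values adjusted over all genes tested. The aim was to ask whether NCP26 differed from NCP22, from which it was developed, and HFG from halofuginol, an alcohol where HFG is a ketone. Since the study describes NCP22 and halofuginol as less potent, the same dose need not mean the same inhibition of ProRS. In AMO1 cells at 6 h HFG stood below halofuginol in 4 of 7 members (background 51.7%). The differences were -1.17 ± 0.15 for HMOX1 (adjusted p = 6.06e-06), -0.85 ± 0.11 for SRXN1 (adjusted p = 7.68e-06), -0.68 ± 0.060 for TXNRD1 (adjusted p = 5.94e-08) and -0.39 ± 0.089 for NQO1 (adjusted p = 0.00149). NCP26 stood below NCP22 in 2 of 6 members (background 24.7%), SRXN1 at -0.66 ± 0.11 (adjusted p = 0.00106) and TXNRD1 at -0.82 ± 0.10 (adjusted p = 0.000173), and HMOX1 at -1.55 is given as a description. The members not called had 95% intervals of the difference of -0.56 to 0.22 for GCLM, -0.31 to 0.22 for GCLC and 0.016 to 0.28 for NFE2L2 between HFG and halofuginol, NFE2L2 being called without HFG replicate 2 (0.20), and of -0.38 to 0.27 for GCLM, -0.77 to -0.089 for GCLC, -0.51 to 0.0082 for NQO1 and -0.10 to 0.27 for NFE2L2 between NCP26 and NCP22. Without NCP26 replicate 1 NQO1 was called as well (-0.39), and without NCP26 replicate 3 GCLC was (-0.58). At 24 h HFG exceeded halofuginol in HMOX1 (0.63 ± 0.14, adjusted p = 0.000902), NQO1 (0.74 ± 0.10, adjusted p = 9.08e-06), GCLM (0.58 ± 0.17, adjusted p = 0.00718) and TXNRD1 (0.36 ± 0.071, adjusted p = 0.000289), with a background of 56.6%. NFE2L2 was lower with HFG (-0.26 ± 0.089, adjusted p = 0.0204), a call lost without HFG replicate 3 (-0.15) or halofuginol replicate 1 (-0.25). NCP26 exceeded NCP22 at 24 h in GCLM (0.62 ± 0.19, adjusted p = 0.0152) and TXNRD1 (0.24 ± 0.084, adjusted p = 0.0254), with a background of 52%, and HMOX1 was 1.90 as a description. The GCLM call was lost without replicate 2 of either compound (0.41 to 0.46), and the TXNRD1 call without NCP26 replicate 2 or 3 or NCP22 replicate 1 or 2 (0.15 to 0.25). The intervals of those not called at 24 h were -0.43 to 0.090 for SRXN1 and -0.34 to 0.36 for GCLC with HFG, and -0.14 to 0.42 for SRXN1, -0.31 to 0.32 for GCLC, -0.26 to 0.16 for NQO1 and -0.15 to 0.16 for NFE2L2 with NCP26. All AMO1 groups of these pairs at 24 h were numbered in 1 set.

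In L363-CFZr cells at 6 h HFG differed from halofuginol in HMOX1 (-1.29 ± 0.050, adjusted p = 5.82e-19), NQO1 (-0.24 ± 0.060, adjusted p = 0.00158), TXNRD1 (0.13 ± 0.047, adjusted p = 0.0214) and NFE2L2 (0.56 ± 0.066, adjusted p = 5.61e-08), with a background of 47.3%. The TXNRD1 call was lost without HFG replicate 1 (0.077) or halofuginol replicate 3 (0.10). NCP26 exceeded NCP22 in GCLM (0.43 ± 0.14, adjusted p = 0.0485) and NFE2L2 (0.56 ± 0.12, adjusted p = 0.00751), with a background of 20.4%, and HMOX1 was -1.45 as a description. The GCLM call was lost without any 1 library other than NCP26 replicate 2 (0.37 to 0.49) and the NFE2L2 call without NCP22 replicate 3 (0.46). At 6 h the intervals of the members not called were -0.0094 to 0.35 for SRXN1, -0.10 to 0.32 for GCLM and -0.065 to 0.29 for GCLC between HFG and halofuginol, and 0.015 to 0.61 for SRXN1, -0.088 to 0.40 for TXNRD1, -0.29 to 0.29 for NQO1 and -0.37 to 0.28 for GCLC between NCP26 and NCP22. The pairs at 24 h do not use the low DMSO library. HFG exceeded halofuginol in SRXN1 (0.55 ± 0.12, adjusted p = 0.00420), TXNRD1 (0.44 ± 0.066, adjusted p = 0.000172) and NFE2L2 (0.41 ± 0.080, adjusted p = 0.00187) and stood below it in HMOX1 (-1.79 ± 0.085, adjusted p = 4.57e-10), with a background of 21.9%. NCP26 exceeded NCP22 in SRXN1 (0.74 ± 0.11, adjusted p = 0.000206), TXNRD1 (0.53 ± 0.078, adjusted p = 0.000137), NFE2L2 (0.49 ± 0.10, adjusted p = 0.00190) and NQO1 (0.35 ± 0.089, adjusted p = 0.00747), with a background of 34.1%, and HMOX1 was -1.49 as a description. GCLM (-0.23 to 0.36 and 0.049 to 0.65), GCLC (0.049 to 0.59 and 0.061 to 0.61) and, for HFG, NQO1 (0.025 to 0.40) were not called, with these 95% intervals for HFG and NCP26 in turn. None of the 8 calls at 24 h was lost when a library was left out. Without 1 library further members were called, GCLM for NCP26 at 0.47 without its replicate 1 and at 0.43 without NCP22 replicate 1, with GCLC at 0.42 in the latter, and for HFG NQO1 at 0.26 to 0.30 without HFG replicate 1 or halofuginol replicate 3 and GCLC at 0.44 without the latter.

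NCP26 and HFG, which bind ProRS at different sites, were compared directly in 3 pairs. In AMO1 cells at 6 h edgeR and DESeq2 called 0 of 6 members, 2 being at an unadjusted p under 0.05, with a background of 0.26%. The 95% interval of the difference was -0.040 to 0.52 for SRXN1, -0.25 to 0.20 for TXNRD1 and -0.17 to 0.40 for NQO1 on the log2 scale, and differences within these bounds remain possible. HMOX1 differed by -0.062, as a description, and by 0.061 without NCP26 replicate 1. At 24 h NQO1 was lower with NCP26 than with HFG (-0.75 ± 0.10, adjusted p = 6.8e-06) and was 1 of 6 members called against 44.9% of genes, and without HFG replicate 1 NFE2L2 was called too (0.21). HMOX1 stood at 114 ± 7.72 CPM with NCP26 and 41.6 ± 7.63 CPM with HFG, with no overlap and a described difference of 1.46 on the log2 scale. In L363-CFZr cells at 24 h edgeR and DESeq2 called 0 of 7 members, 2 being at an unadjusted p under 0.05, with a background of 12.9%. The intervals there were 0.014 to 0.46 for SRXN1, 0.035 to 0.32 for TXNRD1 and -0.053 to 0.29 for NFE2L2, and TXNRD1 was called without NCP26 replicate 1 (0.20).

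**Figure D4:**
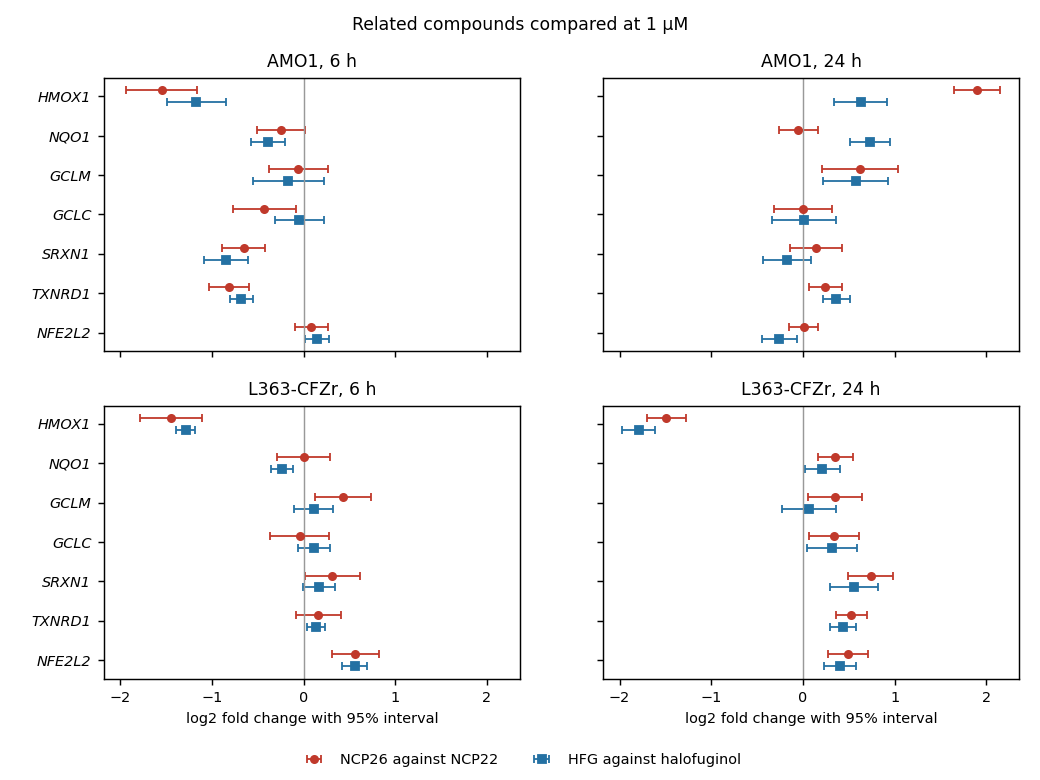
Difference of the related compounds in 7 members on the log2 scale with its 95% interval, NCP26 against NCP22 in red and HFG against halofuginol in blue, by line and time. HMOX1 with NCP26 chose the genes, so its red points and their intervals are a description and are not read as a test. HMOX1 lies to the left of 0 in 3 panels and to the right of 0 for both pairs in AMO1 cells at 24 h.

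The solvent control itself differed between the times, with storage differing as well in AMO1 cells and not stated for L363-CFZr cells. In AMO1 cells 4 of 7 members were lower at 24 h than at 6 h with DMSO (background 46.5%), with a log2 fold change of -0.58 ± 0.14 for HMOX1, -0.60 ± 0.10 for NQO1, -0.72 ± 0.10 for SRXN1 and -0.52 ± 0.077 for TXNRD1. The adjusted p-values were 0.00173, 2.67e-05, 3.63e-06 and 7.57e-06 in that order. In L363-CFZr cells 3 of 8 were lower (background 14.8%), HMOX1 at -1.57 ± 0.23 (adjusted p = 0.0113), SRXN1 at -0.72 ± 0.16 (adjusted p = 0.0267) and TXNRD1 at -0.62 ± 0.14 (adjusted p = 0.0298). The HMOX1 call there was lost without any 1 of the DMSO libraries at 6 h (-1.64 to -1.44), the SRXN1 call without any of these or replicate 3 at 24 h (-0.79 to -0.64), and the TXNRD1 call without any of these or replicate 1 at 24 h (-0.67 to -0.58). Without the low replicate 2 at 24 h NQO1 was called, at -0.26, and these L363-CFZr groups carried different sets of sample numbers.

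Differences of an effect between times were tested as an interaction. In AMO1 cells the NCP26 effect was higher at 24 h in SRXN1 by 0.78 ± 0.13 (adjusted p = 0.000573) and in TXNRD1 by 0.70 ± 0.13 (adjusted p = 0.00108), 2 of 7 members against 17.5% of genes. OSGIN1 is among these 7 and was not called. It passed the filter through the NCP26 libraries alone, with 14, 11 and 9 counts at 24 h against 3, 6 and 3 with DMSO. NQO1 was called without NCP26 replicate 1 at 6 h (0.46), and NFE2L2, lower at 24 h, without DMSO replicate 3 (-0.36) or NCP26 replicate 3 (-0.35) at 6 h. The HFG effect was higher at 24 h in HMOX1, in NQO1 by 1.18 ± 0.13 (adjusted p = 1.26e-06), in SRXN1 by 0.77 ± 0.16 (adjusted p = 0.000568) and in TXNRD1 by 0.79 ± 0.10 (adjusted p = 6.47e-06), and lower in NFE2L2, at -0.63 ± 0.12 (adjusted p = 0.000279), 5 of 7 members against 39.6%. With CFZ the effect was lower at 24 h in 5 of 7 members beside OSGIN1 (background 19.6%), SRXN1 at -1.13 ± 0.16 (adjusted p = 0.000297), GCLM at -0.80 ± 0.20 (adjusted p = 0.0145), TXNRD1 at -0.58 ± 0.13 (adjusted p = 0.00720), NFE2L2 at -0.67 ± 0.16 (adjusted p = 0.00838) and HMOX1 as given with its levels. The GCLM call was lost without DMSO replicate 2 at 24 h (-0.65). The effects with HFG and CFZ thus moved in opposite directions over time in HMOX1, SRXN1 and TXNRD1 and in the same direction in NFE2L2, each against the same DMSO libraries. In L363-CFZr cells edgeR and DESeq2 called 0 of 7 members for NCP26, 1 being at an unadjusted p under 0.05, with 0.691% of genes called, and the described HMOX1 difference was 0.17, or -0.046 without DMSO replicate 2 at 24 h, against 4.01 in AMO1 cells.

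Between the lines the NCP26 effect at 6 h was higher in L363-CFZr than in AMO1 cells in SRXN1 by 1.06 ± 0.16 (adjusted p = 0.00141) and in TXNRD1 by 0.79 ± 0.15 (adjusted p = 0.00736), 2 of 7 members against 2.71% of genes. At 24 h it was higher in SRXN1 by 0.63 ± 0.17 (adjusted p = 0.0456) and in NFE2L2 by 0.65 ± 0.13 (adjusted p = 0.0136), 2 of 7 against 5.41%. The SRXN1 call at 24 h was lost without any 1 library other than DMSO replicate 2 or 3 of L363-CFZr cells (0.60 to 0.68). Without either of those libraries NQO1 (0.53 to 0.83) and TXNRD1 (0.42 to 0.60) were called. The HFG effect at 24 h was higher in L363-CFZr cells in SRXN1 by 0.69 ± 0.17 (adjusted p = 0.0164) and in NFE2L2 by 0.67 ± 0.15 (adjusted p = 0.0102), which with the lower HMOX1 made 3 of 8 members against 16.9%. The described HMOX1 difference with NCP26 was 0.31 at 6 h and -3.56 at 24 h. OSGIN1, scarce with DMSO in AMO1 cells, is among the members counted between the lines and was not called. Line, clone and, at 24 h, the set of sample numbers cannot be told apart in these differences.

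The regulators of the pathway were read from a list of 10 genes. BACH1, the repressor of HMOX1, rose in AMO1 cells with NCP26 at 6 h (0.85 ± 0.14, adjusted p = 0.000677), when HMOX1 was low, and at 24 h (1.09 ± 0.087, adjusted p = 3.73e-12), when HMOX1 was high. It went from 48.8 ± 7.88 to 87.1 ± 13.8 CPM at 6 h and from 66.8 ± 9.73 to 142 ± 12.3 CPM at 24 h. With HFG it rose by 1.07 ± 0.11 at 6 h (adjusted p = 7.35e-07) and 0.41 ± 0.10 at 24 h (adjusted p = 0.00226), and with CFZ by 1.26 ± 0.10 at 6 h (adjusted p = 5.82e-09). With CFZ at 24 h it was not called (0.23 ± 0.15), and with the set term the HFG call at 24 h was lost (0.15). BACH1 transcripts were thus higher with NCP26 at both times. BACH1 protein and its binding of haem were not examined here, and a link between BACH1 and HMOX1 was not tested. In L363-CFZr cells at 6 h BACH1 rose by 0.69 ± 0.17 with NCP26 (adjusted p = 0.0181), a call lost without DMSO replicate 1 or 3 (0.61 to 0.64), and by 0.97 ± 0.12 with HFG (adjusted p = 3.44e-07). At 24 h BACH1 was called with neither, but was with both without DMSO replicate 2, at 0.77 for NCP26 and 0.35 for HFG, and with NCP26 when all groups of the line were in 1 fit (0.64).

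KEAP1, the adaptor that marks NRF2 for degradation, fell in AMO1 cells at 6 h with NCP26 (-0.61 ± 0.12, adjusted p = 0.00209) and HFG (-0.49 ± 0.11, adjusted p = 0.00126) and was not called with CFZ (0.16 ± 0.093). At 24 h it rose with HFG (0.22 ± 0.067, adjusted p = 0.00842), a call lost with the set term (0.22). With CFZ at 24 h KEAP1 was 0.38 ± 0.11 (adjusted p = 0.0339), lost without any 1 library other than CFZ replicate 2 (0.30 to 0.39), and with NCP26 it was -0.0021 ± 0.071. The HFG effect on KEAP1 was higher at 24 h than at 6 h by 0.74 ± 0.13 (adjusted p = 0.00018). This call was kept in each of the alternatives run for it. The set term, with which the HFG call at 24 h was lost, was not among them, nor was the fit of all groups of the line. In L363-CFZr cells KEAP1 fell with HFG at 6 h (-0.27 ± 0.066, adjusted p = 0.00124), a direction that turned with the offset for GC content (0.079), and it was not called with NCP26 at 6 h (-0.24 ± 0.10), although it was without NCP26 replicate 2 (-0.32). At 24 h KEAP1 was called without DMSO replicate 2, at 0.32 with NCP26 and 0.31 with HFG, and with all groups of the line in 1 fit, at 0.40 and 0.39, but not in the test on the compared libraries alone.

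SQSTM1, which encodes p62, an autophagy receptor that binds KEAP1, was 789.7 ± 39.8 CPM with DMSO at 6 h and 3439 ± 171 CPM with CFZ in AMO1 cells, a log2 fold change of 2.12 ± 0.055 (adjusted p = 4.42e-18), and at 24 h CFZ raised it by 1.53 ± 0.12 (adjusted p = 0.000134). NCP26 raised SQSTM1 by 0.58 ± 0.10 at 6 h (adjusted p = 0.000855) and 1.51 ± 0.038 at 24 h (adjusted p = 1.94e-24), and HFG by 1.19 ± 0.056 (adjusted p = 1.83e-10) and 0.83 ± 0.047 (adjusted p = 3.78e-11). SQSTM1 was thus up in all 6 comparisons in AMO1 cells. In L363-CFZr cells it was called with NCP26 at 24 h (0.82 ± 0.18, adjusted p = 0.0369), which was lost without any 1 library other than DMSO replicate 2 (0.79 to 0.91), and at 6 h it was 0.10 ± 0.11 with NCP26 and 0.027 ± 0.060 with HFG, neither called. Without DMSO replicate 2 SQSTM1 was also called with HFG at 24 h (0.40), as it was with all groups in 1 fit (0.57). With the GC offset SQSTM1 was called with HFG at 6 h in this line (0.37). MAFG, a small MAF partner shared by NRF2 and BACH1, rose in AMO1 cells with NCP26, HFG and CFZ at both times, from 0.40 with NCP26 at 6 h (adjusted p = 0.0122) to 0.87 with HFG at 24 h (adjusted p = 1.64e-09), the first of these calls being lost without DMSO replicate 1 (0.33). In L363-CFZr cells MAFG was called at 24 h without DMSO replicate 2, at 0.52 with NCP26 and 0.30 with HFG, and with all groups of the line in 1 fit, at 0.49 and 0.27, but by edgeR not on the compared libraries alone. DESeq2 and the GC offset also called MAFG with NCP26 at 24 h (0.48 and 0.62), and the GC offset called it with HFG at 6 h (0.41). MAFF, another small MAF partner, rose with HFG at 6 h in AMO1 cells (1.32 ± 0.23, adjusted p = 0.000148), was called with NCP26 at 6 h without NCP26 replicate 1 (0.68) and with CFZ at 24 h without CFZ replicate 2 (-0.63) or 3 (-0.88). MAFK, the third small MAF gene, fell with HFG at 6 h in L363-CFZr cells (-0.46 ± 0.14, adjusted p = 0.00725), a call lost with the GC offset (-0.077) and in DESeq2. The other MAFK calls, with NCP26 (-0.41 ± 0.15, adjusted p = 0.0161) and HFG (-0.36 ± 0.15, adjusted p = 0.0409) at 24 h in AMO1 cells and with NCP26 at 6 h in L363-CFZr cells (-0.52 ± 0.16, adjusted p = 0.0393), were each lost without 1 library, replicate 3 of DMSO or NCP26 for the first (-0.34 to -0.32), any but DMSO replicate 1 for the second (-0.41 to -0.29) and any but NCP26 replicate 2 or 3 for the third (-0.57 to -0.45).

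The wider pathway was read from 63 further genes of glutathione, thioredoxin, NADPH, haem and iron, detoxification, superoxide and regulation, of which 61 were in the table. CFZ at 6 h in AMO1 cells gave 25 higher and 2 lower of 56 tested, with a median log2 fold change of 0.22 against -0.0062 over all genes. NCP26 gave 10 higher and 23 lower of 56 (median -0.28, all genes -0.011) and HFG 10 higher and 33 lower of 56 (median -0.39, all genes 0.013). Of all genes, 14.1% higher and 12.8% lower were called with CFZ, 18.1% higher and 19.2% lower with NCP26 and 27.7% higher and 26.6% lower with HFG. Beside these shares, the called list genes were mostly higher with CFZ and mostly lower with NCP26 and HFG. The list of 10 regulators among them went the other way with NCP26 (6 higher and 1 lower) and HFG (6 higher and 2 lower). With CFZ the regulators gave 4 higher and 0 lower. At 24 h NCP26 gave 16 higher and 25 lower of 56 (median -0.10, all genes 0.0075), HFG 18 higher and 23 lower of 56 (median -0.041, all genes -0.0019) and CFZ 13 higher and 10 lower of 56 (median 0.042, all genes 0.015). All genes at 24 h gave 29.8% higher and 30.9% lower with NCP26, 28.5% higher and 30.5% lower with HFG and 13.1% higher and 14% lower with CFZ. In L363-CFZr cells NCP26 gave 11 higher and 7 lower of 55 at 6 h (median -0.091, all genes 0.013) and 10 higher and 2 lower of 55 at 24 h (median 0.16, all genes -0.0020). HFG gave 13 higher and 30 lower of 55 at 6 h (median -0.25, all genes -0.0022) and 8 higher and 1 lower of 55 at 24 h (median 0.20, all genes -0.016). The shares of all genes called higher and lower in this line were 9.81% and 8.99% with NCP26 and 26.9% and 27.5% with HFG at 6 h, and 2.71% and 4.38% with NCP26 and 0.592% and 0.573% with HFG at 24 h. Without CFZ replicate 2 the calls with CFZ at 24 h went from 23 to 37 and without any 1 DMSO library they were 11 or 12, without NCP26 replicate 2 the calls with NCP26 at 6 h in L363-CFZr cells went from 18 to 34 and to 11 without DMSO replicate 1 or 3, and without DMSO replicate 2 those at 24 h went from 12 to 27 with NCP26 and from 9 to 28 with HFG, the latter standing at 5 without DMSO replicate 1 and 2 without any 1 HFG library. With the set term 21 genes were called with NCP26 and 21 with HFG at 24 h in AMO1 cells, and 20 with HFG at 6 h in L363-CFZr cells.

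Among 12 glutathione genes, SLC7A11, the cystine carrier that feeds glutathione synthesis and also answers to amino acid stress, rose with NCP26, HFG and CFZ at 6 h in AMO1 cells. It went from 10.1 ± 2.21 CPM with DMSO to 49.6 ± 4.47 with NCP26, 58.7 ± 2.66 with HFG and 61.9 ± 1.72 with CFZ, log2 fold changes of 2.30 ± 0.17, 2.57 ± 0.15 and 2.61 ± 0.15 (adjusted p = 1.73e-06, 1.93e-09 and 1.49e-11). In L363-CFZr cells it rose by 3.10 ± 0.20 with NCP26 (adjusted p = 4.72e-06) and 3.67 ± 0.10 with HFG (adjusted p = 9.21e-19) at 6 h, and at 24 h by 2.89 ± 0.18 with NCP26 (adjusted p = 0.000418) and 1.95 ± 0.18 with HFG (adjusted p = 0.00583), the last of these being lost without any 1 HFG library (1.90 to 2.01). At 24 h in AMO1 cells it rose by 2.29 ± 0.12 with NCP26 (adjusted p = 5.38e-17) and 2.70 ± 0.12 with HFG (adjusted p = 6.61e-13). SLC7A11 was thus up where SRXN1 and TXNRD1 were down, as with NCP26 and HFG at 6 h in AMO1 cells. CHAC1, which breaks down glutathione and is an amino acid stress gene, rose with HFG at 24 h in AMO1 cells (2.83 ± 0.18, adjusted p = 1.71e-10) and with NCP26 in L363-CFZr cells at 6 h (2.77 ± 0.21, adjusted p = 1.35e-05) and 24 h (4.11 ± 0.21, adjusted p = 0.000164). HFG raised CHAC1 in L363-CFZr cells by 2.60 ± 0.17 at 6 h (adjusted p = 8.61e-12) and 3.55 ± 0.21 at 24 h (adjusted p = 0.00106). CHAC1 was also called higher with NCP26 at 24 h in AMO1 cells, at 1.97 with the set term. GSTP1, a glutathione transferase, fell with HFG in AMO1 cells at 6 h (-1.32 ± 0.085, adjusted p = 7.27e-09) and 24 h (-3.39 ± 0.087, adjusted p = 5.09e-16), at 24 h from 278 ± 11.1 to 26.9 ± 3.53 CPM. With CFZ at 24 h GSTP1 fell by 1.76 ± 0.16 (adjusted p = 0.00021). It was also called lower with NCP26 at 24 h in AMO1 cells, at -1.83 with the set term. The glutathione list as a whole gave 3 higher and 5 lower of 12 with NCP26, 3 higher and 8 lower of 12 with HFG and 6 higher and 0 lower of 12 with CFZ at 6 h in AMO1 cells, against 37.3%, 54.3% and 26.9% of all genes called in that order.

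Of the thioredoxin and peroxiredoxin genes, 1 higher and 6 lower of 9 tested passed with NCP26 and 1 higher and 7 lower of 9 with HFG in AMO1 cells at 6 h, and 3 higher and 0 lower of 9 with CFZ, against 37.3%, 54.3% and 26.9% of all genes called in these comparisons. PRDX1, an abundant peroxiredoxin, fell with NCP26 from 424 ± 8.05 to 127 ± 20.1 CPM (-1.74 ± 0.12, adjusted p = 9.36e-07) and with HFG to 115 ± 5.18 CPM (-1.85 ± 0.072, adjusted p = 1.58e-11). PRDX2, another peroxiredoxin, fell with NCP26 at 24 h (-1.81 ± 0.065, adjusted p = 1.08e-20). With HFG at 24 h in AMO1 cells PRDX2 was also called lower, at -0.61 with the set term. In L363-CFZr cells at 6 h both genes were called lower with NCP26 and HFG. With the set term PRDX1 was -0.92 with each compound, and PRDX2 was -0.66 with NCP26 and -1.02 with HFG. At 24 h in this line PRDX1 was called lower with neither compound and PRDX2 with NCP26 only. That PRDX2 call was lost without any 1 library other than DMSO replicate 2 (-1.17 to -1.01). SESN2, a sestrin known as a target of amino acid stress as well as of NRF2, went the other way and rose with NCP26 in AMO1 cells at 6 h (0.74 ± 0.10, adjusted p = 0.000189) and 24 h (1.63 ± 0.068, adjusted p = 5.44e-19). SESN2 was also called higher with HFG at 24 h in AMO1 cells, at 1.23 with the set term. In L363-CFZr cells SESN2 rose with NCP26 at 6 h (2.82 ± 0.12, adjusted p = 2.91e-07) and 24 h (2.98 ± 0.15, adjusted p = 0.000164) and with HFG at 6 h (2.84 ± 0.086, adjusted p = 3.37e-18), likewise at 24 h (2.09 ± 0.14, adjusted p = 0.00114). The NADPH and pentose phosphate genes gave 0 higher and 4 lower of 6 with NCP26, 0 higher and 5 lower of 6 with HFG and 4 higher and 0 lower of 6 with CFZ at 6 h in AMO1 cells, beside the same shares of all genes. The haem and iron genes gave 0 higher and 4 lower of 9, 0 higher and 6 lower of 9 and 4 higher and 1 lower of 9 in the same order, with the same backgrounds. FTL, the light chain of ferritin, which stores the iron that haem oxygenase frees, rose with CFZ at 6 h from 3761 ± 312 to 11701 ± 359.6 CPM (1.63 ± 0.051, adjusted p = 1.45e-16). With CFZ at 24 h FTL was also called higher, at 0.80 with the set term, a call lost without any 1 DMSO library (0.70 to 0.73). With HFG it was called lower at 24 h in AMO1 cells and at 6 h in L363-CFZr cells, at -0.94 and -0.54 with the set term. TFRC, the transferrin receptor that brings iron in, fell with NCP26 at 24 h from 634 ± 23.1 to 166 ± 13.1 CPM (-1.94 ± 0.053, adjusted p = 1.15e-23). At 24 h in AMO1 cells TFRC was also called lower with HFG and CFZ, at -2.03 and -0.51 with the set term. The CFZ call was lost without any 1 library other than CFZ replicate 2 (-0.47 to -0.41). It was also lost with the replicate block (-0.45) and the GC offset (-0.38). The detoxification genes gave 0 higher and 2 lower of 8, 0 higher and 3 lower of 8 and 3 higher and 1 lower of 8 beside these backgrounds, with CBR1, a carbonyl reductase, lower with NCP26 (-1.05 ± 0.13, adjusted p = 9.22e-05). PIR, an NRF2 target of uncertain enzymatic role, was higher with CFZ at 24 h (2.06 ± 0.51, adjusted p = 0.0181) with widely spread libraries (17.8 ± 12.4 CPM), and the call was lost without DMSO replicate 1 or 3 (1.90 to 1.95). The superoxide list, with SOD1 and CAT tested, gave 0 higher and 1 lower of 2, 0 higher and 2 lower of 2 and 1 higher and 0 lower of 2 in that order, with the backgrounds above.

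**Figure D5:**
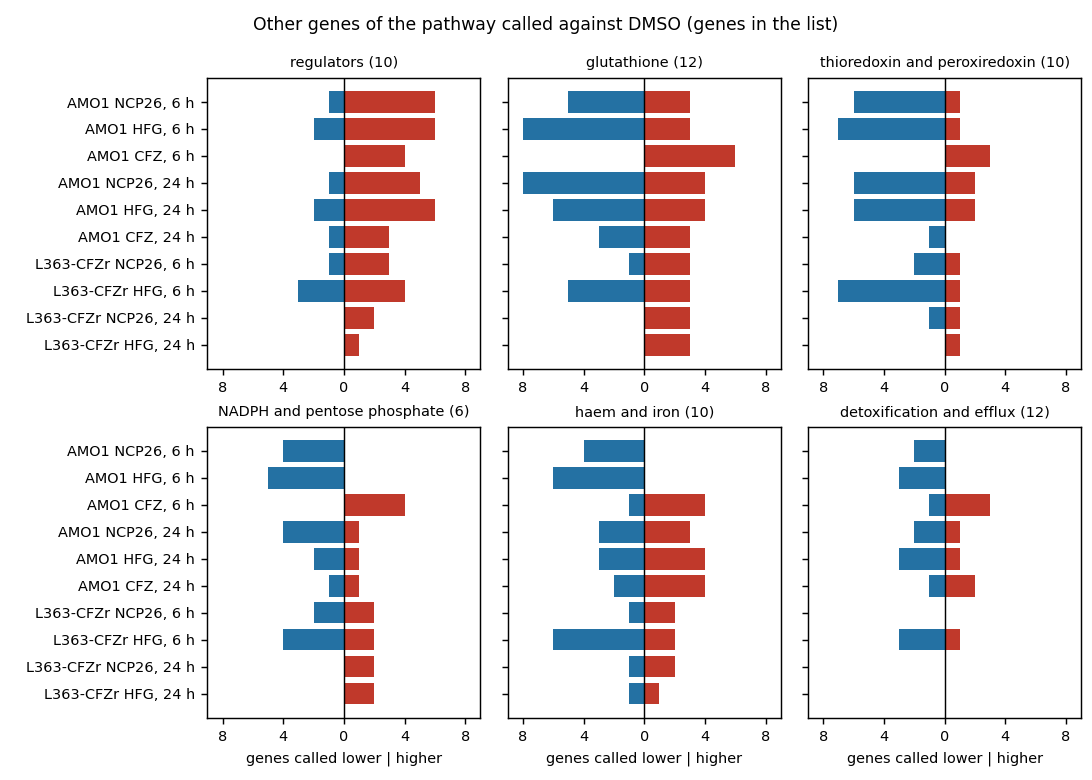
Number of genes called lower (blue, left) and higher (red, right) against DMSO in 6 of the 7 lists of other pathway genes, with the list size in each title, for 10 comparisons. At 6 h in AMO1 cells the glutathione list reached 6 higher and 0 lower with CFZ, and 3 higher and 8 lower with HFG.

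The genes whose group means were most like those of HMOX1 differed between the lines. Over the 12 group means of log2 CPM in AMO1 cells, among 10188 genes, the 5 highest Pearson correlations were those of IER5 (0.96), PSAP (0.93), ST13 (0.93), TXLNA (0.92) and YWHAG (0.92). Over the 10 group means in L363-CFZr cells, among 9933 genes, they were NFS1 (0.98), LPCAT3 (0.98), WDR77 (0.98), DDX19A (0.97) and SGSM3 (0.97). With Spearman correlation 1 of these 5 genes stayed among the first 5 in AMO1 cells, TXLNA, and 0 of 5 in L363-CFZr cells. Group means within a line share one cell line and its DMSO libraries, so the coefficients describe likeness over these groups alone. Within the pathway, the correlation with HMOX1 in AMO1 cells was 0.80 for GCLM, 0.77 for SRXN1, 0.74 for OSGIN1, 0.66 for TXNRD1, 0.58 for GCLC, 0.51 for NQO1 and -0.40 for NFE2L2. In L363-CFZr cells the same 7 members lay between -0.34 and 0.28. All these coefficients include the HMOX1 values with NCP26 that chose the genes, so they are descriptions and were not tested. AMO1 cells with CFZ at 6 h stood highest in HMOX1, GCLM, SRXN1, OSGIN1 and TXNRD1. Spearman correlation was not run for the members.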

How the data were processed

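RNAseq measured polyA RNA of 66 libraries in 22 groups of AMO1 and L363-CFZr cells (directional libraries, paired ends, NextSeq). The deposited values are whole-number read counts per gene for 20167 genes, and 0 columns had no sample. The authors quantified transcripts with kallisto against a reference transcriptome on GRCh38 with 31-base words, and the submitters' processing notes name hg19. Not given in the sources used here are the kallisto version, the annotation and the step to gene counts. Positions and GC content were taken from GENCODE 44, which with a name table named 19299 genes.

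Counts were tested with edgeR 4.0.16 (R 4.3.3, limma 3.58.1) by quasi-likelihood with TMM scaling, after filterByExpr with a minimum count of 10 and total of 15, on the libraries compared only. P-values were adjusted by Benjamini-Hochberg over all genes tested in a comparison, with a threshold of 0.05, and were not adjusted further over the 11 compound pairs or the 38 comparisons. The standard error was taken from the log2 fold change and the F statistic, and intervals are at 95%. Levels are CPM over TMM-scaled library sizes of all libraries, and log2 CPM used a prior count of 2. The scripts were tested on simulated data. Total counts had a median of 3009496 in AMO1 and 3562784.5 in L363-CFZr libraries. Among 66 pairs of replicates 0 were identical, and the chi-square per gene ran from 1.30 to 34.1.

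The alternatives were DESeq2 1.42.0 (size factors and Wald test), no filter, a GC offset (lowess, span 0.3, with a GC value for 95.7% of genes), all groups of a line in 1 fit, the replicate number as a block, the set of sample numbers as a term, each library left out and Spearman correlation. The members, lists and tests were chosen with earlier results of these data known. Named beside the members are the regulators KEAP1, BACH1, MAFF, MAFG, MAFK and SQSTM1, the 3 other list genes per comparison that moved farthest in log2 terms and were called, at a mean of at least 5 CPM and with no overlap between groups, and the 5 genes most correlated with HMOX1. Promoters were printed for members that hold the searched NRF2 core. TXNIP, SOD2 and PECAM1 were not analysed here.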

Additional observations from a re-analysis of the deposited data

Results flagged for a closer look

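Effects that differed between times or lines, by an interaction test of the difference itself (edgeR, adjusted p under 0.05), are listed for a closer look with their log2 values. Sizes are differences of 2 log2 fold changes against DMSO, and their errors and adjusted p-values stand with the comparisons above. For NCP26 in AMO1 cells, 24 h minus 6 h, they were 0.78 for SRXN1 and 0.70 for TXNRD1. For HFG in AMO1 cells over the same times they were 2.51 for HMOX1, 1.18 for NQO1, 0.77 for SRXN1, 0.79 for TXNRD1 and -0.63 for NFE2L2. For CFZ they were -1.16 for HMOX1, -0.80 for GCLM, -1.13 for SRXN1, -0.58 for TXNRD1 and -0.67 for NFE2L2. For NCP26 in L363-CFZr minus AMO1 cells they were at 6 h 1.06 for SRXN1 and 0.79 for TXNRD1. At 24 h the NCP26 values between lines were 0.63 for SRXN1 and 0.65 for NFE2L2. For HFG between lines at 24 h they were -2.34 for HMOX1, 0.69 for SRXN1 and 0.67 for NFE2L2. Of these, HMOX1 with HFG was positive between times and negative between lines. HMOX1 with NCP26 is not listed because its values chose the genes, and HMOX1 with HFG and CFZ was compared with the same DMSO libraries. Storage of the samples, stated for AMO1 cells only, differs along with time, and the set of sample numbers differs along with time and line. Their part in these differences was not tested.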

How the results depend on the processing

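The alternatives put DESeq2 size factors in place of TMM, or used the DESeq2 Wald test, no filter on low counts or the replicate block. Others used an offset for GC content, all groups of a line in 1 fit, the set term and each library left out in turn. Across them 5063 of the recomputed values for members, regulators and named pathway genes were counted as the same, 226 lost a call, 104 gained one, 2 moved and 4 reversed. Counted as the same are calls that kept their direction, and values called in neither fit, even where their sign changed. A change of sign between values that were called in neither fit is thus not counted as a reversal. HMOX1 values with NCP26, which had no test, were the same if the sign held and the shift was within the spread of the libraries. The cause of these changes was not tested.

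The reversals were HMOX1 for AMO1 NCP26/HFG at 6 h (0.061 without NCP26 replicate 1, range with 1 library left out -0.19 to 0.061), HMOX1 for L363-CFZr NCP26 between times (-0.046 without DMSO replicate 2 at 24 h, range -0.046 to 0.37) and, with the GC offset, KEAP1 for AMO1 NCP26 at 24 h (0.18) and for L363-CFZr HFG at 6 h (0.079). HMOX1 with NCP26 at 24 h in AMO1 cells was 2.32, and 2.47 with the GC offset and 2.47 with the set term.

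Counts of members called changed by more than 1.5 times as follows. With the DESeq2 Wald test they went for L363-CFZr NCP26 at 6 h from 3 to 1, AMO1 NCP26/NCP22 at 24 h from 2 to 1, L363-CFZr NCP26/NCP22 at 6 h from 2 to 1 and NCP26 between lines at 24 h from 2 to 4. With no filter on low counts they went for AMO1 NCP22 at 6 h from 1 to 0, AMO1 halofuginol at 6 h from 1 to 2, AMO1 NCP26 at 24 h from 1 to 2, L363-CFZr NCP26/NCP22 at 6 h from 2 to 1 and NCP26 between lines at 24 h from 2 to 1. With the GC offset they went for AMO1 NCP22 at 6 h from 1 to 0, AMO1 halofuginol at 6 h from 1 to 0, AMO1 NCP26 at 24 h from 1 to 3, AMO1 NCP26/NCP22 at 24 h from 2 to 1, L363-CFZr NCP26/NCP22 at 6 h from 2 to 1 and NCP26 between lines at 24 h from 2 to 4. With all groups of a line in 1 fit they went for AMO1 NCP26 at 6 h from 3 to 5, AMO1 NCP22 at 6 h from 1 to 0, AMO1 halofuginol at 6 h from 1 to 0, AMO1 NCP26 at 24 h from 1 to 2, AMO1 CFZ at 24 h from 4 to 8, L363-CFZr halofuginol at 6 h from 2 to 1, L363-CFZr HFG at 24 h from 1 to 5, AMO1 NCP26/NCP22 at 6 h from 2 to 4, L363-CFZr HFG/halofuginol at 6 h from 4 to 2 and L363-CFZr DMSO between times from 3 to 5. With the set term they went for AMO1 CFZ at 24 h from 4 to 7 and L363-CFZr halofuginol at 6 h from 2 to 0. Some of these counts include OSGIN1, which had too few counts in the main test. They are AMO1 CFZ at 24 h with the set term and AMO1 NCP26 at 24 h with no filter. In 1 fit they are AMO1 NCP26 at 6 h and 24 h, AMO1 CFZ at 24 h and AMO1 NCP26/NCP22 at 6 h. OSGIN1 is also in the highest counts with 1 library left out for AMO1 NCP26, CFZ and NCP26/NCP22 at 24 h.

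With 1 library left out in turn, the counts of members ran 2 to 3 for AMO1 NCP26 at 6 h, 0 to 2 for AMO1 NCP22 at 6 h, 0 to 1 for AMO1 halofuginol at 6 h, 1 to 2 for AMO1 NCP26 at 24 h, 3 to 8 for AMO1 CFZ at 24 h, 0 to 1 for AMO1 NCP22 at 24 h, 1 to 4 for L363-CFZr NCP26 at 6 h, 1 to 4 for L363-CFZr halofuginol at 6 h, 0 to 4 for L363-CFZr NCP26 at 24 h, 0 to 5 for L363-CFZr HFG at 24 h, 2 to 3 for AMO1 NCP26/NCP22 at 6 h, 0 to 3 for AMO1 NCP26/NCP22 at 24 h, 1 to 2 for AMO1 NCP26/HFG at 24 h, 0 to 3 for L363-CFZr NCP26/NCP22 at 6 h, 3 to 5 for L363-CFZr HFG/halofuginol at 6 h, 0 to 1 for L363-CFZr NCP26/HFG at 24 h, 0 to 4 for L363-CFZr DMSO between times and 1 to 4 for NCP26 between lines at 24 h.

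Counts over the pathway lists went with all groups of a line in 1 fit for AMO1 CFZ at 24 h from 23 to 35, L363-CFZr NCP26 at 24 h from 12 to 24 and L363-CFZr HFG at 24 h from 9 to 20, and with the set term for AMO1 NCP26 at 24 h from 41 to 21, AMO1 HFG at 24 h from 41 to 21 and L363-CFZr HFG at 6 h from 43 to 20.

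The replicate numbers did not pair the libraries. In 0 of 31 comparisons of 2 groups was every correlation of same-numbered libraries over 0.1 (range -0.32 to 0.27). With the replicate block the counts of members went for L363-CFZr NCP26 at 6 h from 3 to 1, L363-CFZr NCP26 at 24 h from 3 to 0, L363-CFZr HFG at 24 h from 1 to 0, L363-CFZr NCP26/NCP22 at 6 h from 2 to 1 and NCP26 between lines at 24 h from 2 to 1, the pathway lists for L363-CFZr NCP26 at 6 h from 18 to 11 and L363-CFZr HFG at 24 h from 9 to 5 and all genes for AMO1 NCP22 at 24 h from 0 to 50, AMO1 halofuginol at 24 h from 20 to 5, L363-CFZr NCP26 at 6 h from 2012 to 958, L363-CFZr NCP22 at 6 h from 0 to 4, L363-CFZr NCP26 at 24 h from 757 to 156, L363-CFZr HFG at 24 h from 122 to 20, AMO1 NCP26/HFG at 6 h from 28 to 17 and L363-CFZr NCP26 between times from 76 to 3.

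Counts over all genes, the background of the member counts, changed by more than 1.5 times as well. With the DESeq2 Wald test they went for AMO1 NCP22 at 6 h from 1443 to 898, AMO1 NCP22 at 24 h from 0 to 3, AMO1 halofuginol at 24 h from 20 to 65, L363-CFZr NCP22 at 6 h from 0 to 1, L363-CFZr halofuginol at 6 h from 2718 to 1665, L363-CFZr HFG at 24 h from 122 to 319, AMO1 NCP26/HFG at 6 h from 28 to 70, L363-CFZr HFG/halofuginol at 24 h from 2280 to 1408 and L363-CFZr NCP26 between times from 76 to 192. With no filter on low counts they went for AMO1 halofuginol at 6 h from 383 to 672, AMO1 NCP22 at 24 h from 0 to 98, AMO1 halofuginol at 24 h from 20 to 100, L363-CFZr NCP22 at 6 h from 0 to 118, AMO1 NCP26/HFG at 6 h from 28 to 366 and NCP26 between lines at 6 h from 299 to 539. With the GC offset they went for AMO1 NCP22 at 6 h from 1443 to 609, AMO1 halofuginol at 6 h from 383 to 235, AMO1 halofuginol at 24 h from 20 to 42 and AMO1 NCP26/HFG at 6 h from 28 to 53. With all groups of a line in 1 fit they went for AMO1 halofuginol at 6 h from 383 to 120, AMO1 CFZ at 24 h from 2886 to 5200, AMO1 NCP22 at 24 h from 0 to 1, AMO1 halofuginol at 24 h from 20 to 0, L363-CFZr halofuginol at 6 h from 2718 to 770, L363-CFZr NCP26 at 24 h from 757 to 2918, L363-CFZr HFG at 24 h from 122 to 1918, AMO1 NCP26/HFG at 6 h from 28 to 263, L363-CFZr HFG/halofuginol at 6 h from 5000 to 2738, L363-CFZr HFG/halofuginol at 24 h from 2280 to 1291, L363-CFZr NCP26/HFG at 24 h from 1354 to 313 and L363-CFZr DMSO between times from 1563 to 5169. With the set term they went for AMO1 NCP26 at 24 h from 6547 to 2324, AMO1 HFG at 24 h from 6328 to 3033, AMO1 halofuginol at 24 h from 20 to 0, L363-CFZr NCP26 at 6 h from 2012 to 3434, L363-CFZr HFG at 6 h from 5706 to 2681 and L363-CFZr halofuginol at 6 h from 2718 to 381.

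Low counts left OSGIN1 tested in 21 of the 38 comparisons, and ME1, with 3 counts in 3 libraries, was tested in none. The spread of AMO1 CFZ replicate 2 and L363-CFZr DMSO replicate 2, both at 24 h, limited the comparisons that use them. So did that of L363-CFZr NCP26 replicate 2 at 6 h.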
